A study of Mus musculus with 45 samples.

Results

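The genes described here are 7 of the 15997 genes with a row in at least 1 of the 3 deposited tables: placental hormones and other products of the ectoplacental cone, read in mouse embryos shortly after implantation. They were taken by symbol, by a rule that itself uses no measured value, but were chosen with earlier results of these data known. The 7 are Tpbpa, Prl3d1, Prl2c2, Prl8a2, Plac1, Plac8 and 1600029D21Rik, the last an older symbol of Plet1. Of these, 4 (Prl2c2, Prl8a2, Plac8 and Plet1) had a row at all 3 stages. The E5.25 table had no row for Tpbpa, Prl3d1 or Plac1, so 4 of 7 could be read there, against 7 of 7 at E5.5 and at E5.75. No row joined one of the 7 symbols to that of a paralogue.

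The study cut frozen mouse embryos of embryonic day E5.25, E5.5 and E5.75, freed from the decidua, into numbered sections, took tissue by laser capture and sequenced its total RNA with Smart-seq2, a method for very small amounts of RNA. No treatment was given, and the labels state neither strain nor genotype. The groups used here are 7 sections of E5.25, 10 columns of E5.5 that stand for 9 section numbers, 17 sections of E5.75, and 2 E5.75 libraries labelled VE, commonly read as visceral endoderm, taken at sections 6 and 7. The labels speak of the embryo of each stage in the singular and name no replicate embryos, and they do not say which end of the embryo section 1 is, so a p-value speaks of these sections and not of embryos in general. E5.75 sections 9 and 13 were not used here. At E5.5, 7 of the columns join parts A and B of a section, and parts A and B of section 10 have a column each. Values are log2(FPKM + 1), where FPKM counts sequenced fragments per length of transcript and relative to the library's total, and a level is given on this scale unless FPKM is named.

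The early placenta acts as an endocrine organ. Its outer trophoblast, first in the ectoplacental cone and in the giant cells around the embryo, makes hormones of the prolactin family, many of them encoded in 1 gene cluster of the mouse, and these act on the ovary, the vessels and the decidua of the mother. Prl3d1 encodes placental lactogen I, an early giant cell hormone that maintains progesterone production, and Prl2c2 encodes proliferin, an angiogenic hormone of giant cells. Prl8a2 encodes decidual prolactin-related protein, known from the maternal decidua as well as from trophoblast. Tpbpa marks ectoplacental cone and spongiotrophoblast cells, Plac1 is an X-linked gene needed for normal placental growth, Plac8 encodes the small cysteine-rich protein onzin, and Plet1 encodes a glycoprotein anchored at the surface of early trophoblast.

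In mm10 (GRCm38, GENCODE annotation), 4 of the 7 genes lie on chromosome 13. Prl3d1 is at chr13:27094190-27100258 on the + strand and Prl8a2 at chr13:27345673-27354216 on the + strand. Prl2c2 is at chr13:12996125-13005383 on the - strand and Tpbpa at chr13:60938492-60941984 on the - strand, both apart from them. Plac1 is at chrX:53069995-53240111 on the - strand, Plac8 at chr5:100553725-100572245 on the - strand and Plet1 at chr9:50494525-50505482 on the + strand.

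Prl3d1 and Prl2c2 have near copies, which bears on what an FPKM value of theirs can mean. The coding sequence of Prl3d1 (672 bases) was 97.92% identical to that of Prl3d2 and 98.66% identical to that of Prl3d3, its neighbours on chromosome 13. Prl2c2 was 99.55% identical to Prl2c3 over 672 bases, with a shared run of 353 bases. The first 60 coding bases, with capitals at the bases that differ from Prl3d1 or from Prl2c2, show how close they are:
Prl3d1: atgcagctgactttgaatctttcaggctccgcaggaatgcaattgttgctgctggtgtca
Prl3d2: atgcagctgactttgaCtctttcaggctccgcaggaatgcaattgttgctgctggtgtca
Prl3d3: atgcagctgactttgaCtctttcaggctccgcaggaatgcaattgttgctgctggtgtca
Prl2c2: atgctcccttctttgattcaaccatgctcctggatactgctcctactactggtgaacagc
Prl2c3: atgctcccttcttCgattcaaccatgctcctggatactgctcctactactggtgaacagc
One base in this stretch separates Prl3d1 from either neighbour, and 1 separates Prl2c2 from Prl2c3. Of all 50-base windows of the annotated transcript, 56.79% were shared with another gene for Prl3d1 and 89.53% for Prl2c2. The share was 6.24% for Tpbpa (with Tpbpb), 0.49% for Plet1, and 0% for Prl8a2, Plac1 and Plac8. How the authors' processing placed reads that fit several genes is not given in the sources used here, so the values of Prl3d1 and Prl2c2 are uncertain between copies, and Prl2c3 itself appears only in a joined row, Prl2c3Prl2c4.

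The 3 placental lactogen I genes, which may share reads, also had similar profiles over the E5.75 sections (Prl3d1 against Prl3d2 r = 0.92, against Prl3d3 r = 0.93). They were less similar over the 10 columns of E5.5 (r = 0.86 and 0.60, Spearman's rho 0.53 and 0.14). The part of shared reads in this likeness was not tested. Their promoters are shown as the 250 bases before the RefSeq transcription start (GRCm38.p6, + strand). Capitals mark TGACTCA, a match to the AP-1 motif TGANTCA, and CTTATC, which is the GATA motif GATAAG on the other strand. Prl3d1 is read from chr13:27093939-27094188, Prl3d2 from chr13:27121445-27121694 and Prl3d3 from chr13:27156544-27156793:
Prl3d1: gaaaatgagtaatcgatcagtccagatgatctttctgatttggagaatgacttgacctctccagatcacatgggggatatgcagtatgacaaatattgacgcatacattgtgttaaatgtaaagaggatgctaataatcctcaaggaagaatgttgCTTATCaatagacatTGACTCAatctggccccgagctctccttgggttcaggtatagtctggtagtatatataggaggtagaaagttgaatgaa
Prl3d2: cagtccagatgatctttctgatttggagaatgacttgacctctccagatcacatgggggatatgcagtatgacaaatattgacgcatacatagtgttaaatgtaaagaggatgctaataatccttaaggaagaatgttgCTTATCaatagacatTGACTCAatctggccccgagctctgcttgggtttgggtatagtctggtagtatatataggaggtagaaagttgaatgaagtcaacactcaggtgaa
Prl3d3: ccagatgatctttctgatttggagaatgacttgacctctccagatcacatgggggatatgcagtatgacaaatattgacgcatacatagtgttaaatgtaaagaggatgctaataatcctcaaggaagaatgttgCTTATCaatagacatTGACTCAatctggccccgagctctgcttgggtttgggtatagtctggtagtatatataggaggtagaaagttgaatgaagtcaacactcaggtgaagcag
Over the bases that align, Prl3d1 was 97.85% identical to Prl3d2 and 98.25% to Prl3d3. Each of the 3 held 1 match to TGANTCA and 1 to GATAAG, searched on both strands and not overlapping, and both matches stand side by side in the lines above. Among 32851 RefSeq promoters of the same length, 6.75% held TGANTCA and 6.55% held GATAAG. The 3 promoters are near copies, so they count as 1 case beside these shares. TGANTCA was also found in the promoters of Tpbpa, Plet1 and Prl2c3, and GATAAG in 1 promoter of Plac1. Neither was found for Plac8, Prl2c5, Prl3c1 or Prl8a9. Promoters were found for 5 of the 7 genes, and not for Prl2c2 and Prl8a2. A match is a string of letters and shows no binding.

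Before the values, the libraries themselves differed. Between 2046 and 8217 genes reached an FPKM of 1 per section, with the lowest yields in low-numbered sections at every stage, and the libraries VE 6 and VE 7 reached 1496 and 2147. Rn45s, the ribosomal RNA precursor, took 62.2% and 48.8% of the summed FPKM in VE 6 and VE 7, and 69.8% in section 1 of E5.5. The tables hold no counts, so depth is unknown, and an entry of 0 is given only as a listing of 0. In these bulk samples, fewer trophoblast cells and less RNA per cell cannot be told apart.

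At E5.75, Plac1, Tpbpa and Plac8 stood mainly in sections 14 to 19. Plet1 was already high in sections 10 to 12 (median 4.31, against 3.08 in sections 14 to 19). Prl3d1 also reached an FPKM of 1 in 5 of the 8 sections from 1 to 8. Of the 7 genes 5, Plac1, Prl8a2, Plet1, Plac8 and Tpbpa, rose with section number, none fell, and Prl3d1 and Prl2c2 did not pass the test. The test was limma's moderated test of a line in section number over 17 sections, 2-sided, with Benjamini-Hochberg adjustment over 11149 genes at 0.05, and a change is the fitted log2 difference from section 1 to section 19. By the same rule 18.9% of all genes tested rose and 2.07% fell. The median change of the 7 genes was 4.19, against 0.80 over all genes tested. All 7 passed the filter of an FPKM of 1 in at least 2 sections, in which a gene confined to a few sections can pass through those alone.

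**Figure D1:**
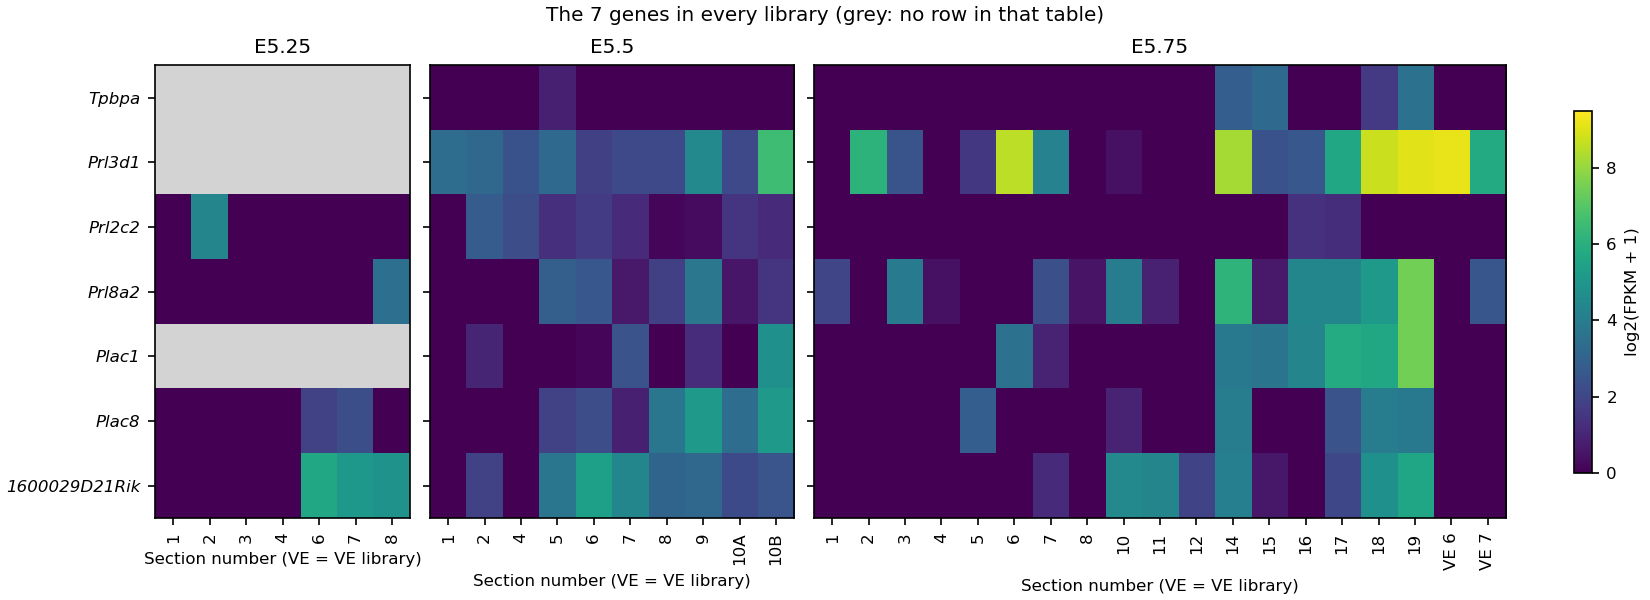
Heat map of log2(FPKM + 1) for the 7 genes (vertical axis) in every column of the 3 tables (horizontal axis, section number; VE marks the VE libraries); grey means that the table has no row. At E5.75 the bright columns are sections 14 and 17 to 19. Prl3d1 is also bright in section 2 at 6.13, in section 6 at 8.55 and in VE 6 and VE 7 at 9.17 and 5.81.

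Plac1 gave the steadiest profile. Sections 1 to 5 listed it at 0, section 6 gave 3.55, section 7 gave 0.90, and sections 8 to 12 again listed it at 0. It then stood at 3.85, 3.65, 4.32, 5.84, 5.69 and 7.49 in sections 14, 15, 16, 17, 18 and 19. Every section from 14 on was thus above every earlier section, and section 19 was the highest of all. How many other genes show this order was not counted. The fitted rise was 6.45 ± 1.07 (SE, n = 17 sections, adjusted p = 0.00027, limma), and it passed under each of 26 alternative settings, with adjusted p from 8.5e-05 to 0.0391.

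Tpbpa, the ectoplacental cone marker, was listed at 0 in all 11 sections from 1 to 12. It stood at 2.83 in section 14, 3.26 in section 15, 1.63 in section 18 and 3.53 in section 19, and was listed at 0 in sections 16 and 17 between them. Its presence was therefore limited to 4 of the 6 highest sections. The fitted rise was 2.37 ± 0.72 (adjusted p = 0.0236, limma) and lost its call when section 19 was left out (adjusted p = 0.0826) or with quantile normalization (adjusted p = 0.123). It was lost under 5 of 26 alternatives, the others being gene detection as a covariate (adjusted p = 0.062), sections 1, 2 and 14 left out (0.0559) and sections 17, 18 and 19 left out (0.0946).

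Plet1 already stood high in section 10. Sections 1 to 6 and 8 listed it at 0, section 7 gave 1.18, and it reached 4.46, 4.31 and 1.93 in sections 10, 11 and 12, where Plac1 and Tpbpa were both listed at 0. In sections 14 to 19 it stood at 4.10, 0.60, 0, 2.05, 4.78 and 5.58, with sections 15 and 16 low between high neighbours. The fitted rise was 4.19 ± 1.08 (adjusted p = 0.00915, limma), with 24 of 26 alternatives passing and a loss when gene detection entered as a covariate (adjusted p = 0.107) or sections 17, 18 and 19 were left out (0.143). Elf5, a transcription factor of trophoblast stem cells, was at 3.60 or more from section 10 on and at 1.52 or less before. It thus did not share the low values of Plet1 in sections 15 and 16. The Pearson correlation of Elf5 with Plet1 was 0.83 over the 17 sections and 0.56 over the 10 columns of E5.5 (Spearman's rho 0.86 and 0.37).

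Plac8 was patchy. It stood at 2.86 in section 5, 0.93 in section 10, 3.97 in section 14 and 2.43, 4.03 and 3.84 in sections 17, 18 and 19, and was listed at 0 in the other 11 sections. Sections 15 and 16, low for Plet1, were at 0 for Plac8 as well. The fitted rise of 2.82 ± 0.94 (adjusted p = 0.0347, limma) lay near the threshold. The call was lost under 12 of 26 alternatives. It was lost without section 1, 2, 3 or 4, where the estimate stayed at 2.77 to 2.87 (adjusted p 0.0503 to 0.0586). It was also lost without section 17, 18 or 19 (2.19 to 2.75, adjusted p 0.0591 to 0.103). Quantile normalization and gene detection as a covariate lost it too (adjusted p = 0.12 and 0.258). The others were sections 1 and 2 left out (adjusted p = 0.0891) and sections 1, 2 and 14 left out (0.115). Without sections 17, 18 and 19 together the change was 0.76 (0.599).

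**Figure D2:**
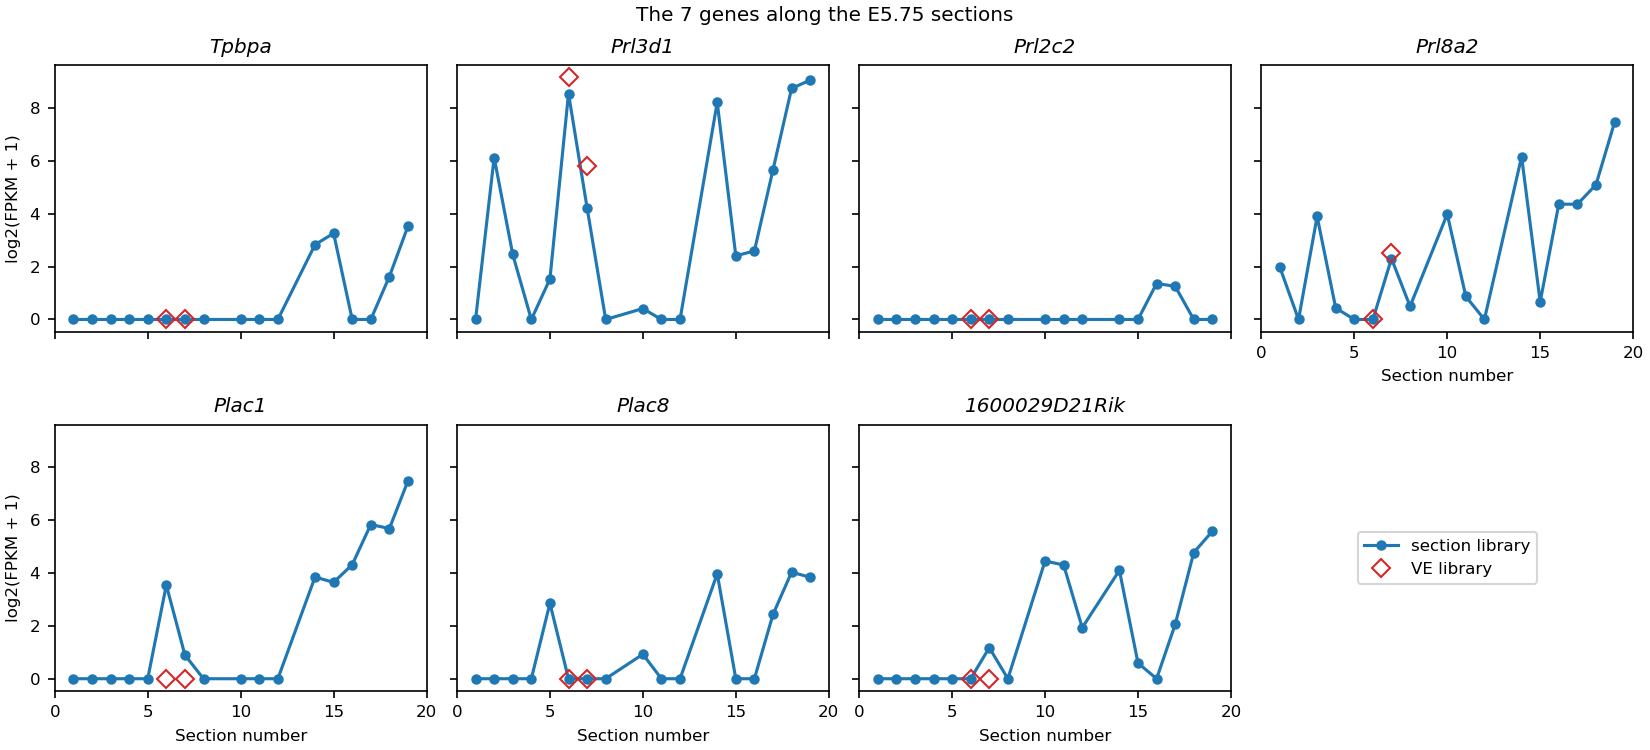
Level (vertical axis, log2(FPKM + 1)) of each gene against section number at E5.75; blue points joined by lines are section libraries and open red diamonds are the VE libraries, 1 library per point. Plac1 and Tpbpa stand mainly from section 14 on, Plet1 already from section 10, and Prl3d1 has separate peaks at sections 2, 6, 14 and 17 to 19.

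The prolactin family hormones among the 7 did not share one profile. Prl3d1 reached the highest level of any of the 7 genes, 9.06 in section 19, an FPKM of 534. It stood at 8.75 in section 18, 5.67 in section 17, 2.60 in section 16, 2.41 in section 15 and 8.22 in section 14. Sections 10, 11 and 12 gave 0.41, 0 and 0, so placental lactogen I was listed at or near 0 where Plet1 first stood high. Lower on the axis it came back, at 6.13 in section 2, 2.46 in section 3, 1.53 in section 5, 8.55 in section 6 and 4.23 in section 7, with 0 in sections 1, 4 and 8. Section 6, at an FPKM of 375, lay between sections 14 and 18. The line over all 17 sections gave 4.44 ± 2.03 and did not pass (adjusted p = 0.119, limma); leaving out section 6 brought it past the threshold (adjusted p = 0.0455).

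Prl8a2, the decidual prolactin-related hormone, reached an FPKM of 1 in 9 of 17 sections, against 11 for Prl3d1. It stood at 6.17, 0.67, 4.37, 4.36, 5.10 and 7.46 in sections 14 to 19, and at 3.99, 0.87 and 0 in sections 10, 11 and 12. Among the low sections it stood at 1.97 in section 1, 3.90 in section 3, 0.44 in section 4, 2.31 in section 7 and 0.50 in section 8, with 0 in sections 2, 5 and 6. Section 6, where Prl3d1 peaked, was therefore at 0 for Prl8a2. The rise was 4.60 ± 1.29 (adjusted p = 0.0146, limma) and missed the threshold without section 19 (adjusted p = 0.058), with quantile normalization (0.0851) and without sections 17, 18 and 19, where it was 2.18 (0.302). Prl2c2, the proliferin gene, was listed at 0 in 15 of 17 sections and stood at 1.36 in section 16 and 1.26 in section 17 (change 0.56 ± 0.35, adjusted p = 0.264).

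Some markers of the decidua, the maternal tissue that surrounds the embryo, moved with part of this pattern. Of 14 decidua genes listed, 10 had a row at E5.75 and 4, Hoxa11, Pgr, Wnt4 and Col3a1, had none. Their summed FPKM was 6.58 to 155.7 in sections 14 to 19, 12.4 to 24.3 in sections 10 to 12 and 0 to 42.4 in sections 1 to 8, with the highest values, 155.7 and 108.5, in sections 19 and 14. Those are also the sections with the highest Prl8a2. Most of the sum in both sections came from the lens and muscle chaperone gene Cryab, used here as a decidua marker. It stood at 6.81 in section 19 and 6.07 in section 14, while Hoxa10, which the uterine stroma expresses, was listed at 0 in both. Of 8 decidua genes tested 3, Cryab, Htra1 and Cebpb, rose, beside 18.9% of all genes. Bmp2, Des, Dcn, Alpl and Hand2 did not pass (changes from -0.81 to 1.70). The part of this tissue in the levels of Prl8a2 was not tested. Of 6 endothelial genes listed, only Cdh5 and Pecam1 had a row at E5.75, and Kdr, Tie1, Tek and Emcn had none. Both genes with a row rose, with a summed FPKM of 0.335 to 76.1 in sections 14 to 19 and at most 1.6 below. Their part in the result was not tested either.

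Read by level in sections 14 to 19, where FPKM may be compared between genes per length, Prl3d1 had the highest median, 6.95 (range 2.41 to 9.06, n = 6 sections). Plac1 followed at 5.003 (3.65 to 7.49) and Prl8a2 at 4.73 (0.67 to 7.46), then Plac8 at 3.14 (0 to 4.03), Plet1 at 3.08 (0 to 5.58), Tpbpa at 2.23 (0 to 3.53) and Prl2c2 at 0 (0 to 1.36). The ranges of neighbours in this order overlapped throughout. In sections 14, 17, 18 and 19, 6 of the 7 genes reached an FPKM of 1, with the highest summed FPKM, 958, in section 19, and sections 4 and 8 had none at that level.

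A further fit took only sections 10 to 19, the upper part of the numbered series. Plac1 and Prl3d1 rose toward section 19, and the estimate for Plet1 was near 0 with a wide error. The line over these 9 sections gave 7.81 ± 0.70 for Plac1 (adjusted p = 7.61e-05, limma) and 8.83 ± 1.73 for Prl3d1 (adjusted p = 0.0204), 2 of 7 genes called, where 1.13% of 9967 genes tested rose. Plet1 changed by 0.07 ± 1.56 (adjusted p = 0.991), with an estimate below 0 under 5 of 15 alternatives. Estimates were above 0 and did not pass for Prl8a2 (4.46 ± 1.61, adjusted p = 0.186), Plac8 (3.24 ± 1.28, 0.230), Tpbpa (2.24 ± 1.19, 0.400) and Prl2c2 (0.53 ± 0.63, 0.761). The rise of Prl3d1 missed the threshold without section 11, 18 or 19 (adjusted p 0.0622 to 0.0935). Differences between the genes' slopes were not tested.

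**Figure D3:**
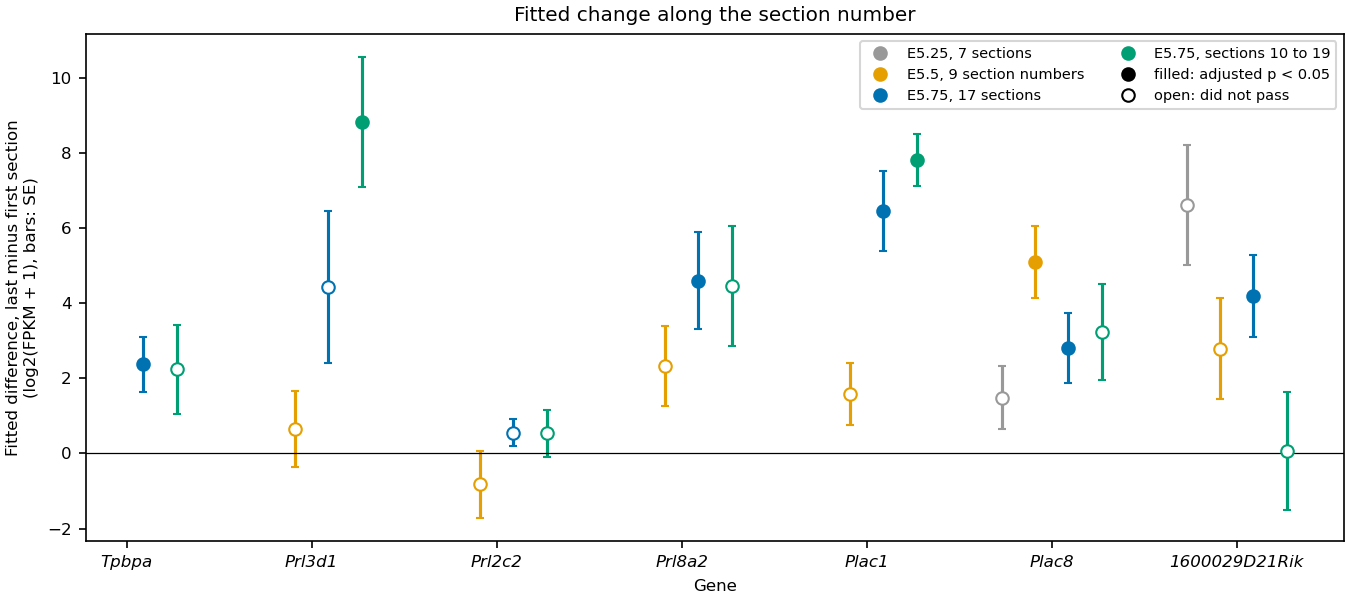
Fitted log2(FPKM + 1) difference from the first to the last section (vertical axis, bars are SE) for each gene (horizontal axis) and each of 4 fits, with filled points where the adjusted p was under 0.05. Plac1 is filled in both E5.75 fits, at 6.45 and 7.81, and Plet1 lies at 0.07 within sections 10 to 19.

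Regulators of the ectoplacental cone and of the extraembryonic ectoderm were read over the same sections. From a list of 11 ectoplacental cone and giant cell regulators, 8 of 9 tested rose over all E5.75 sections (median change 5.81), where 18.9% of all genes rose. Within sections 10 to 19, 4 of 9 rose, where 1.13% of all genes did. These 4 were Phlda2, an imprinted brake on placental growth (6.53 ± 0.59), Hand1, a transcription factor of giant cells (2.94 ± 0.54), Ascl2, which maintains ectoplacental cone precursors (5.34 ± 1.01), and Gata2 (5.256 ± 1.004), which with Gata3 is known to act on placental lactogen I transcription. Gata3 did not pass there (1.85 ± 0.55, adjusted p = 0.105, limma). Tfap2c and Ets2 had positive estimates and Peg10 and Bhlhe40 negative ones, and none of these passed. Of 10 genes of the extraembryonic ectoderm and trophoblast stem cells, 5 fell and none rose within sections 10 to 19, where 0.532% of all genes fell, among them Eomes by 3.33 ± 0.43 and Cdx2 by 5.42 ± 0.83. Over the whole axis 6 of those 10 had risen, beside 18.9% of all genes. The median change of all genes was 0.80 there and 0.14 within sections 10 to 19.

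Other hormones of the prolactin family were read from a list of 25, of which 14 had a row at E5.75. Of 10 tested 5 rose, beside the 18.9% of all genes: Prl6a1 (4.55 ± 1.28), Prl8a9 (4.51 ± 1.13), Prl3c1 (4.34 ± 1.35), Prl7a1 (3.62 ± 1.26) and Prl7b1 (3.001 ± 0.759). The median over the 10 was 3.68. Prl3d2 and Prl3d3 did not pass over all sections (adjusted p = 0.085 and 0.060), as Prl3d1 had not, and within sections 10 to 19 Prl3d2 rose by 6.60 ± 1.47 (adjusted p = 0.0335) and Prl3d3 stood at 6.92 ± 1.70 (adjusted p = 0.0569, limma). The 4 genes not tested reached an FPKM of 1 in a single E5.75 section: Prl2a1 and Prl4a1 in section 18, Prl2b1 in section 14 and Prl7a2 in section 12.

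**Figure D4:**
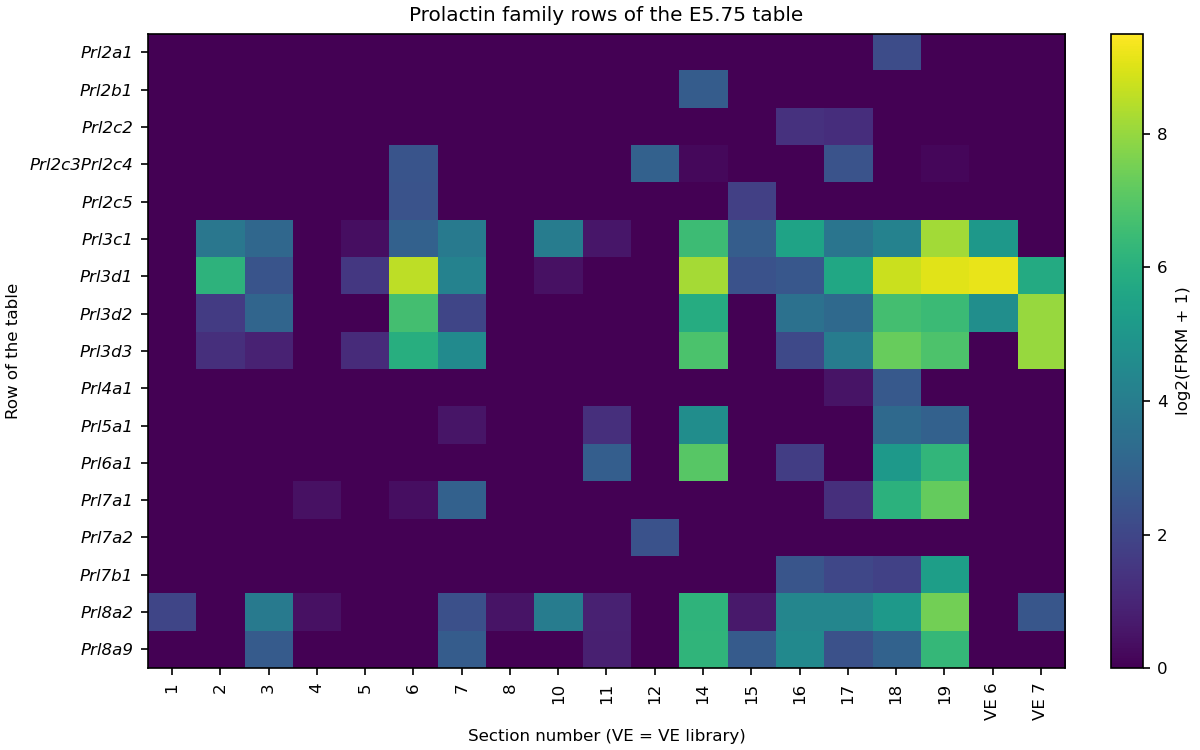
Heat map of log2(FPKM + 1) for every prolactin family row of the E5.75 table (vertical axis) over the sections and VE libraries (horizontal axis). Prl3d1, Prl3d2 and Prl3d3 share their bright columns at sections 6, 14, 18 and 19, whereas Prl6a1, Prl7b1 and Prl8a9 are listed at 0 in section 6.

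Hormone profiles are set side by side in 2 groups put together after seeing the values, with correlations over 17 libraries that share a stage and differ in gene detection. The first was Prl3d1 with Prl3d3 (r = 0.93) and Prl3d2 (r = 0.92), near copies that may share reads. All 3 stood high in section 6 (Prl3d2 at 6.66, Prl3d3 at 5.97) and all 3 were low in sections 8 to 12, at 0.41 or less. The second was Prl8a2 with Prl8a9 (r = 0.84) and Prl3c1 (r = 0.82), whose coding sequences are 71.76% and 51.03% identical to that of Prl8a2. In section 6 Prl8a2 and Prl8a9 were listed at 0 and Prl3c1 stood at 2.94, and in section 19 the 3 stood at 7.46, 6.34 and 8.18. Prl3d1 against Prl8a2 gave r = 0.53 and against Prl3c1 r = 0.76, and by rank Prl3c1 was as near to Prl3d1 (Spearman's rho 0.81) as to Prl8a2 (0.76), so the groups are not separate. Over the 10 columns of E5.5, Prl8a2 gave r = 0.60 with Prl8a9 and -0.01 with Prl3c1, so Prl3c1 did not go with Prl8a2 there. Prl3c1 encodes prolactin-like protein J, like Prl8a2 a hormone known from the decidua.

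**Figure D5:**
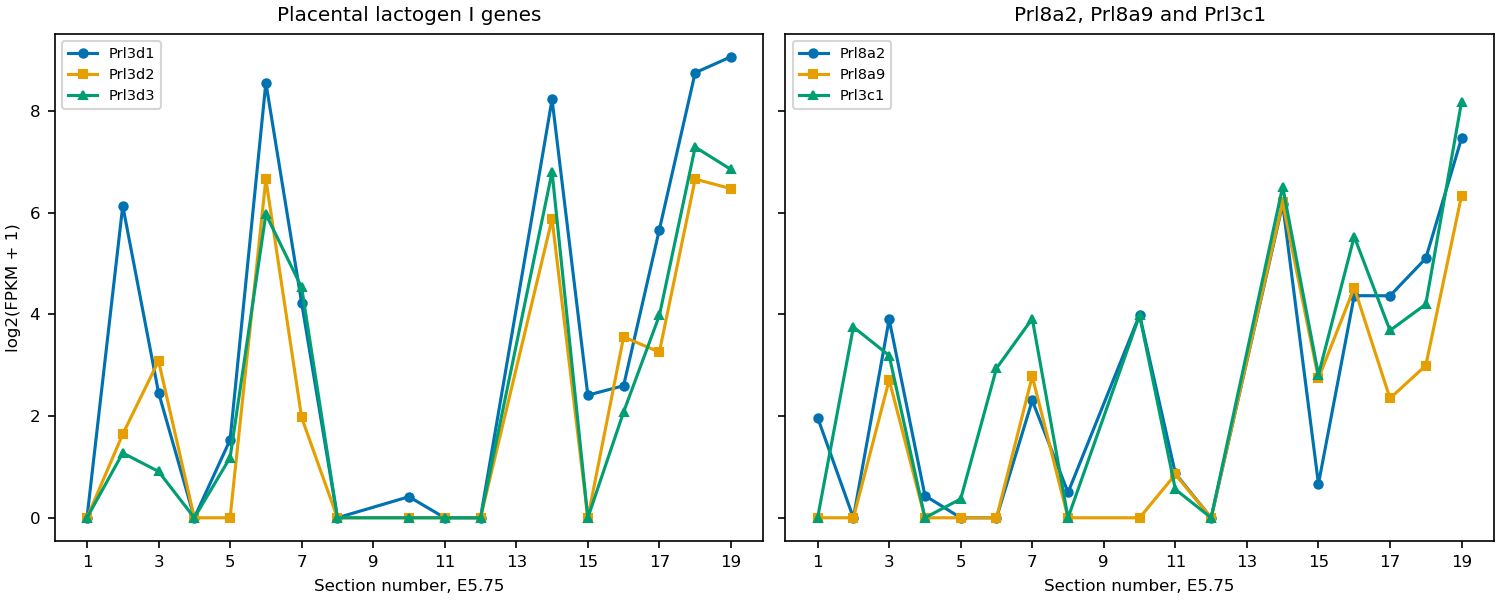
Level (vertical axis, log2(FPKM + 1)) against E5.75 section number for the placental lactogen I genes (left) and for Prl8a2, Prl8a9 and Prl3c1 (right), 1 library per point. In section 6 the left panel has a peak, with Prl3d1 at 8.55 beside 9.06 in section 19, and the right panel has Prl8a2 and Prl8a9 at 0.

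The genes most like each of the 7 over the 17 sections were taken from 4220 genes with a mean FPKM of at least 5. For Plac1 they were the joined row C430049B03RikMir322Mir351Mir503 (r = 0.91), S100a11 (0.89) and Cdh5 (0.89). For Prl8a2 they were Ctla2b, a cathepsin inhibitor (0.91), Sbsn (0.88) and S100a1 (0.88). For Plet1 they were Ly6a (0.89), Gtf2h1 (0.85) and Anxa2 (0.85). Tpbpa was most like Sct, the secretin gene (0.81), Map2k3 (0.73) and Prl8a9 (0.72), and Plac8 like Yif1b (0.86), Cklf (0.85) and Sct (0.85). Prl3d1 was followed by Hist1h2bm (0.87) after its copies. For Prl2c2, at 0 in 15 sections, the nearest were Cib2 (0.62), Rpn1 (0.61) and Cndp2 (0.60), which rests on 2 libraries.

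Relatives of Tpbpa and the placental cathepsins, secreted or lysosomal proteins encoded near Tpbpa on chromosome 13, had 4 rows of 11 listed at E5.75, and all 4 tested rose, where 18.9% of all genes did. The changes were 4.56 ± 1.35 for Ctla2b, 4.48 ± 1.23 for Ctla2a, 4.23 ± 1.22 for Cts7 and 2.11 ± 0.66 for Cts8. Ctla2a and Ctla2b are close paralogues, and reads may be divided between them. Of 18 pregnancy-specific glycoproteins and trophoblast Ceacams, another secreted family of giant cells and spongiotrophoblast, 6 had a row, 3 were tested and none passed; Psg29 was nearest at 2.28 ± 0.91 (adjusted p = 0.0757, limma), and 1 of the 3 was under 0.05 before adjustment.

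The E5.75 libraries labelled VE held placental lactogen. Prl3d1 stood at 9.17 in VE 6 and 5.81 in VE 7, beside 8.55 and 4.23 in the section libraries of the same numbers. Prl8a2 was listed at 0 in VE 6 and stood at 2.53 in VE 7, beside 0 and 2.31 in sections 6 and 7. The other 5 genes were listed at 0 in both VE libraries. Prl3d2 was at 4.70 and 8.03 and Prl3d3 at 0 and 8.03, so these copies stood higher in VE 7, where Prl3d1 stood lower. In VE 7 Prl3d2 and Prl3d3 had the same FPKM, 260.1. Equal values (to 3 decimals) occurred in 2 of 16 libraries with both above 0. Because these genes may share reads, the order of VE 6 and VE 7 by Prl3d1 alone is uncertain. Other placental products were present as well, with Cts7 at 11.43 and Psg29 at 8.48 in VE 6, against 1.22 and 0.42 in VE 7. Of 12 visceral endoderm markers, 3 in VE 6 and 6 in VE 7 reached an FPKM of 1, with summed FPKM of 16.6 and 477, and all 10 decidua rows were at 0 in both. Blood and leukocyte genes summed to 4271 in VE 6, all from the row Hba-a1Hba-a2, and to 4.54 in VE 7. Of 9 parietal endoderm genes, 7 in VE 6 and 4 in VE 7 reached an FPKM of 1, with summed FPKM of 385.9 and 141.7. The part of these tissues in the Prl3d1 values was not tested. With 2 libraries of low yield no test was made. Sections 18 and 19, the highest sections for Prl3d1, had all 12 visceral endoderm markers at 0. Sections 6 and 14, also high for Prl3d1, had 5 and 8 of the 12 at an FPKM of 1 or more (summed FPKM 38.6 and 65.4).

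At E5.5, Plac8 was the gene of the 7 that rose. Of 6 genes tested 1 passed, where 28.3% of 8251 genes rose, so the share of the 7 genes that rose was not above that of all genes (median change 1.96, against 1.22). Plac8 had 0 in sections 1, 2 and 4, and gave 1.87, 2.23, 0.85, 3.72 and 5.10 in sections 5 to 9 and at 3.40 and 5.15 in parts A and B of section 10. The 7 columns from section 5 on were thus all above the 3 lower ones, which also had fewer genes detected (2288 to 4621, against 4954 to 6467). The share of all genes with such a separation was not counted. The rise was 5.10 ± 0.97 (n = 9 section numbers, adjusted p = 0.00183, limma); with gene detection as a covariate it was 8.12 and did not pass (adjusted p = 0.829), as no gene did.

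Prl3d1 was present in every E5.5 column. It stood at 3.38, 3.16, 2.38, 3.26, 1.81, 2.09, 2.11 and 4.49 in sections 1, 2, 4, 5, 6, 7, 8 and 9, and at 2.08 and 6.56 in parts A and B of section 10. Part B was the highest, an FPKM of 93.1, and part A of the same section was among the lowest. The line gave 0.65 ± 1.02 (adjusted p = 0.636, limma), and -0.12 without section 10. Prl3d2 and Prl3d3 were likewise highest in part B, at 5.54 and 5.18, and listed at 0 in part A, and Plac1 stood at 4.77 in part B and 0 in part A.

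Plac1 elsewhere at E5.5 reached 2.43 in section 7, 1.22 in section 9 and 0.98 in section 2, with 0.15 in section 6 and 0 in sections 1, 4, 5 and 8 (change 1.59 ± 0.82, adjusted p = 0.145). Plet1 stood at 0, 1.89, 0, 3.71, 5.37, 4.36, 3.05 and 3.19 in sections 1, 2, 4, 5, 6, 7, 8 and 9 and at 2.14 and 2.52 in parts A and B of section 10. Its maximum thus lay in section 6, in the middle of the numbered series, and the line gave 2.78 ± 1.35 (adjusted p = 0.121, limma). Prl8a2 was at 0 in sections 1, 2 and 4, at 2.88, 2.58, 0.64, 1.81 and 3.77 in sections 5 to 9 and at 0.56 and 1.45 in section 10 (2.33 ± 1.06, adjusted p = 0.102); without section 10 it passed (3.10, adjusted p = 0.0412).

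Prl2c2 had a negative estimate at E5.5. It stood at 0, 2.78, 2.24, 1.28, 1.63, 1.16, 0.17 and 0.29 in sections 1, 2, 4, 5, 6, 7, 8 and 9 and at 1.45 and 1.15 in section 10, so its highest values were in sections 2 and 4. The change was -0.82 ± 0.89 (adjusted p = 0.484, limma). Tpbpa reached 0.82 in section 5, was listed at 0 in the other 9 columns and was not tested. Of the other prolactin family genes 9 were tested and 2 rose (median change 1.17, against 1.22 over all genes, of which 28.3% rose), Prl3d3 by 2.33 ± 0.79 and Prl7a1 by 1.49 ± 0.54. Section 1, where Rn45s took most of the FPKM, had Prl7c1 at 6.98 and Prl3c1 at 5.96, and its decidua markers summed to an FPKM of 193, the highest of the stage; the part of that tissue in these values was not tested. Ctla2b rose by 3.20 ± 0.84, 1 of 3 tested in its list, and 6 of 9 ectoplacental cone regulators rose, beside the 28.3% of all genes.

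At E5.25, Plet1 stood high in the upper sections. Sections 1 to 4 listed it at 0, and sections 6, 7 and 8 gave 5.66, 5.08 and 4.90. How many of all genes separate these sections in the same way was not counted. The line gave 6.62 ± 1.59 (n = 7 sections, unadjusted p = 0.000365, adjusted p = 0.0543, limma). Of 2 genes tested 0 passed after adjustment and 1 at an unadjusted p under 0.05, where 0.378% of 7148 genes rose, and without section 2, 3 or 4 Plet1 passed (adjusted p 0.0236 to 0.0396), while with gene detection as a covariate its change was 3.33 (adjusted p = 0.661). Sections 1 to 4 had 2046 to 4282 genes detected, against 5636 to 6461 in sections 6 to 8. Elf5 (5.52 ± 1.45, adjusted p = 0.0549) and Bmp4 (6.43 ± 1.54, 0.0543), genes of the extraembryonic ectoderm, had estimates of like size that did not pass either.

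The hormones were scattered at E5.25. Prl2c2 stood at 4.33 in section 2 and at 0 in the other 6 sections, and Prl8a2 at 3.46 in section 8 and 0 in the others, so neither was tested. Plac8 stood at 1.89 in section 6 and 2.27 in section 7, with 0 elsewhere (1.48 ± 0.84, adjusted p = 0.206). In section 2 the copies Prl2c5 (5.55) and Prl2c3Prl2c4 (4.79) stood high beside Prl2c2, and in section 1 the joined row was at 4.31 while Prl2c2 was listed at 0. Prl7c1 stood at 5.70 and 5.40 in sections 1 and 2, and Cts8 at 5.28 in section 2. Of 3 other prolactin family genes tested 0 passed in limma's test, and 2 were under 0.05 before adjustment, Prl7c1 at -4.70 ± 1.71 and the row Prl2c3Prl2c4 at -4.43 ± 1.42. Among 8 ectoplacental cone regulators tested 1 passed, Phlda2, by 8.13 ± 1.73 (adjusted p = 0.0442, limma), where 0.378% of all genes rose.

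Across stages, levels were read only within a table, since each was made for its own stage. Plet1 was the gene with an FPKM of 1 in the most sections at E5.25 (3 of 7). Prl3d1 was so at E5.5 (10 of 10 columns) and at E5.75 (11 of 17 sections). Tpbpa reached that level in 0 of 10 columns at E5.5 and 4 of 17 at E5.75. Prl2c2 reached it in 1 of 7, 7 of 10 and 2 of 17. Whether the stages differed was not tested.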

How the data were processed

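Tissue from laser-captured sections was sequenced with Smart-seq2, per the labels' protocols. TopHat2 2.0.4, Cufflinks 2.0.2 and build mm10 are named, per the submitters' processing notes, with no role, annotation or normalization given. The deposited tables, 1 per stage, hold log2 values read as log2(FPKM + 1) from the table names and the values, which start at 0 and sum, back-transformed, to at most 783605 a column. Rows below an FPKM of 1 in every column are absent at E5.25 and E5.75, so a gene with no row may have been filtered by the authors. Sequencing depth and its precision are unknown, because there are no counts. All 36 columns were used. The labels list 45 samples (7, 17 and 21 by stage), and parts A and B of section 10 of E5.5 were averaged in the fit; their source names give sections 10 and 11.

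Each stage was fitted alone in R 4.3.3 with limma 3.58.1, whose eBayes step used the mean-variance trend, as a line in section number from 0 to 1, for genes that reached an FPKM of 1 in 2 or more samples, with Benjamini-Hochberg adjustment at 0.05. The VE libraries were left out of the fits. The members and lists were chosen with earlier results of these data known. Genes named are the 7 members, the 3 genes most correlated with each among genes with a mean FPKM of at least 5, every called gene of the prolactin, Tpbpa-relative and glycoprotein lists, and up to 3 of each other list by smallest p. Gata2 and Ascl2, Elf5 in the E5.75 and E5.25 account, Hoxa10, the other list genes given with levels and members of the lists that did not pass were named after their values were seen. The lists, with the E5.75 rises of genes tested, also covered visceral endoderm (0 of 11), parietal endoderm (3 of 9), blood and leukocytes (1 of 3) and epiblast (0 of 12, with 9 falls). Of all genes tested there, 18.9% rose and 2.07% fell. The fits were tested on simulated data. Other settings tried were a pseudocount of 0.1 or 5, the filter dropped or set at an FPKM of 5, quantile normalization, gene detection (genes at an FPKM of 1 per library) as a covariate, other sections, and leaving out each section. Positions come from GENCODE M21 (GRCm38), promoters from RefSeq; 7 of 7 members matched by symbol or synonym. Sequences were compared with Biopython 1.88 and figures drawn with matplotlib 3.10.9.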

Additional observations from a re-analysis of the deposited data

Results flagged for a closer look

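At E5.25, Prl2c2 stood at 4.33 in section 2 and Prl8a2 at 3.46 in section 8, and both genes were listed at 0 in the other 6 sections. The gap to the nearest section is then the whole range by construction, so Dixon's test, whose chance rate of about 1 in 20 groups does not hold for such listings, adds nothing to the values. All 4 genes with a row were looked at this way, and sections are positions rather than replicates.

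In the VE libraries, which entered no fit, 3 values of the 7 genes reached an FPKM of 1. Prl3d1 stood at 9.17 in VE 6 and 5.81 in VE 7, and Prl8a2 at 2.53 in VE 7. Prl3d1 in VE 6 (an FPKM of 574) ranked 87th by level in that library and in VE 7 (an FPKM of 55.1) 578th.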

How the results depend on the processing

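Of 405 results for single genes under alternatives, 361 kept their direction and side of the threshold, 27 lost the call, 8 gained it and 9 changed sign. Over all E5.75 sections, 5 of the 7 genes were called in the reported fit. Quantile normalization and gene detection as a covariate each left 2, and leaving out 1 section gave 2 to 6, with 2 without section 19. Settings chosen after seeing the data gave 3 without sections 1, 2 and 14 and 1 without sections 17, 18 and 19. At E5.5, where 1 was called, a pseudocount of 0.1 gave 2, the covariate 0, and leaving out 1 section 1 to 2, with 2 without section 10. At E5.25, where 0 were called, a pseudocount of 0.1 and a filter at an FPKM of 5 each gave 1, and leaving out 1 section 0 to 1. Within sections 10 to 19, where 2 were called, no filter left 1 and leaving out 1 section 1 to 2, with 1 without section 11, 18 or 19. The cause of these changes was not tested. Signs turned for Prl2c2 at E5.75 with quantile normalization (-0.0012), for Prl3d1 at E5.5 with quantile normalization (-0.63) and over single sections left out (-0.12 to 1.21), for Plet1 (1600029D21Rik) at E5.5 with the covariate (-4.12), and for Plet1 within sections 10 to 19 with a pseudocount of 0.1 (-0.42), quantile normalization (-0.26) and single sections left out (-1.57 to 1.12).

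All genes called moved too. At E5.75, 2339 became 1336 with quantile normalization, 624 with the covariate, 1407 without sections 1 and 2, 1251 without sections 1, 2 and 14 and 1231 without sections 17, 18 and 19. At E5.5, 2547 became 1087 with quantile normalization, 0 with the covariate and 309 without sections 1 and 2. At E5.25, 29 became 1006 with a pseudocount of 0.1, 877 with the filter at 5, 18 without sections 1 and 2, 3 to 818 with 1 section left out, and 0 with a pseudocount of 5, no filter, quantile normalization or the covariate. Within sections 10 to 19, 166 became 96 without a filter and 37 to 229 with 1 section left out (37 without section 18). No paired analysis was possible because the fits have 1 library for each section number, and the VE libraries of sections 6 and 7, which share numbers with section libraries, entered no test. Depth limits could not be given without counts.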
